A study of Homo sapiens with 12 samples.

Results

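The genes described here are 10 transcription factors of the myeloid lineage and of leukaemia: MYB, RUNX1, GFI1, SPI1, CEBPA, CEBPB, IRF8, ZEB2, LMO2 and ETV6. They were named as a set by function, and each was read from the row with the highest total count among its transcripts. They are 10 of 57096 human genes with a row in the count table, and all 10 were among the 15831 genes that passed the filter on low counts. The cells were THP-1, an acute myeloid leukaemia line of monocytic character that carries an MLL-AF9 fusion. Cells were exposed for 2 hours to AZ5576, THZ531, YKL5124 or the vehicle DMSO, and 1 mM 4-thiouridine was added for the last 10 minutes in all 4 groups. The inhibitors are known to hit different kinases that act on RNA polymerase II: CDK9 is the target of AZ5576, CDK12 and CDK13 are those of THZ531, and CDK7 is that of YKL5124. The labels name no dose. Each group had 3 libraries of tags from the 3′ ends of polyadenylated RNA, and the values used are total counts, so RNA made before and during the exposure is counted together. The 3 columns used for DMSO carry the name UT, which the labels do not use, and they were taken as DMSO because the labels point all 12 samples to the table. Nothing in the labels says that replicates were separate cultures. The p-values therefore reflect the scatter among libraries of a group, pooled over the 4 groups, and that scatter may be technical. The model is 1 cell line under 1 exposure time.

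Lineage transcription factors bind enhancers and promoters of the genes that give a blood cell its identity, and many of them regulate each other. MYB and RUNX1 keep progenitors dividing and poised, PU.1 (encoded by SPI1) and the C/EBP factors set up the granulocyte and monocyte programmes, and GFI1, IRF8 and ZEB2 act in the choice between or within those fates. Leukaemias with MLL fusions are known to depend on several of them, and mRNAs of transcription factors are often short-lived, so their total level can move within hours when transcription is disturbed.

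Depth was 5048370 to 12743630 human counts per library, and AZ5576 replicate 2 was the shallowest. That library also stood apart from the other AZ5576 libraries on a principal component of log2 CPM (11.1, against -7.64 and -7.21 for the others), and results that rest on it are given with and without it. The cells carried the markers of their label: 12 of 13 monocytic markers passed the count filter, and their summed level was 966 to 1057 CPM in AZ5576, 1066 to 1107 CPM in THZ531, 883 to 950 CPM in YKL5124 and 783 to 828 CPM in DMSO. ELANE, a gene of neutrophil granules, carried a large part of this sum, CD14 was the marker that did not pass, and without ELANE the sum was 483 to 504 CPM in AZ5576, 510 to 520 CPM in THZ531, 447 to 459 CPM in YKL5124 and 419 to 429 CPM in DMSO. CPM are a gene's counts relative to the human total of its library, adjusted by TMM, a method that sets each library relative to the middle of its genes. Of 16 markers of other cell types, 5 had 0 counts in every library and 4 passed the filter. Their sum was 224 to 251 CPM in AZ5576, 208 to 223 CPM in THZ531, 221 to 228 CPM in YKL5124 and 213 to 230 CPM in DMSO. PECAM1, which monocytes express as well, made up most of that, and the other 15 together gave 11.6 to 15.9 CPM over the 12 libraries. One of the markers, the B-cell factor PAX5, fell under THZ531 (log2 fold change -1.70, adjusted p = 7.77e-05).

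Most of the 10 genes had less mRNA under each inhibitor than under DMSO. MYB, GFI1 and CEBPA fell under all 3 inhibitors, and so did LMO2 by a smaller amount. RUNX1 fell about 11.5-fold under THZ531, with no call under AZ5576 or YKL5124. CEBPB fell under AZ5576 and YKL5124. The row read for ZEB2 rose 3.12-fold under THZ531 and fell under AZ5576 and YKL5124, while ETV6 did the opposite. That ZEB2 row is not the end of the full-length mRNA, and the row at the far end fell under THZ531 (log2 fold change -2.40). A gene was called when its adjusted p in edgeR's quasi-likelihood test (Benjamini-Hochberg over 15831 genes) was under 0.05.

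In AZ5576 against DMSO, 1 of the 10 genes rose, 6 fell and 3 were not called. Over all genes tested, 41.7% were called in that comparison, 18.6% higher and 23.1% lower. In THZ531 against DMSO, 1 gene rose, 7 fell and 2 were not called, where 63.4% of all genes were called, 30.4% higher and 32.9% lower. In YKL5124 against DMSO, 1 gene rose, 6 fell and 3 were not called, where 20.8% of all genes were called, 7.25% higher and 13.5% lower. The median log2 fold change of the 10 genes was -0.24 with AZ5576, -0.68 with THZ531 and -0.36 with YKL5124, against medians over all genes of 0.0064, -0.0023 and -0.0044. The 3 comparisons share their DMSO libraries. In bulk RNA, fewer cells with a transcript and less of it per cell cannot be told apart. TMM values are relative to other genes, and scaling to the fly spike-in moved the median of all genes to -0.17 with AZ5576, -0.36 with THZ531 and -0.07 with YKL5124. Under that scaling 6, 9 and 5 of the 10 genes were called lower with AZ5576, THZ531 and YKL5124, where 28.2%, 45.5% and 12.4% of all genes were, and 0, 1 and 0 were called higher, where 3.18%, 7.21% and 3.27% of all genes were. The 1 gene was ZEB2 under THZ531. DMSO replicate 3 stood apart in this scaling, with 18.0 human counts per fly count, against 13.5 to 15.8 in the inhibitor libraries and 14.8 and 14.4 in the other DMSO libraries. Without it, the spike-in medians of all genes were -0.07 with AZ5576, -0.26 with THZ531 and 0.03 with YKL5124, the genes called lower numbered 5, 9 and 5 of the 10, and those called higher 1, 1 and 0.

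**Figure D1:**
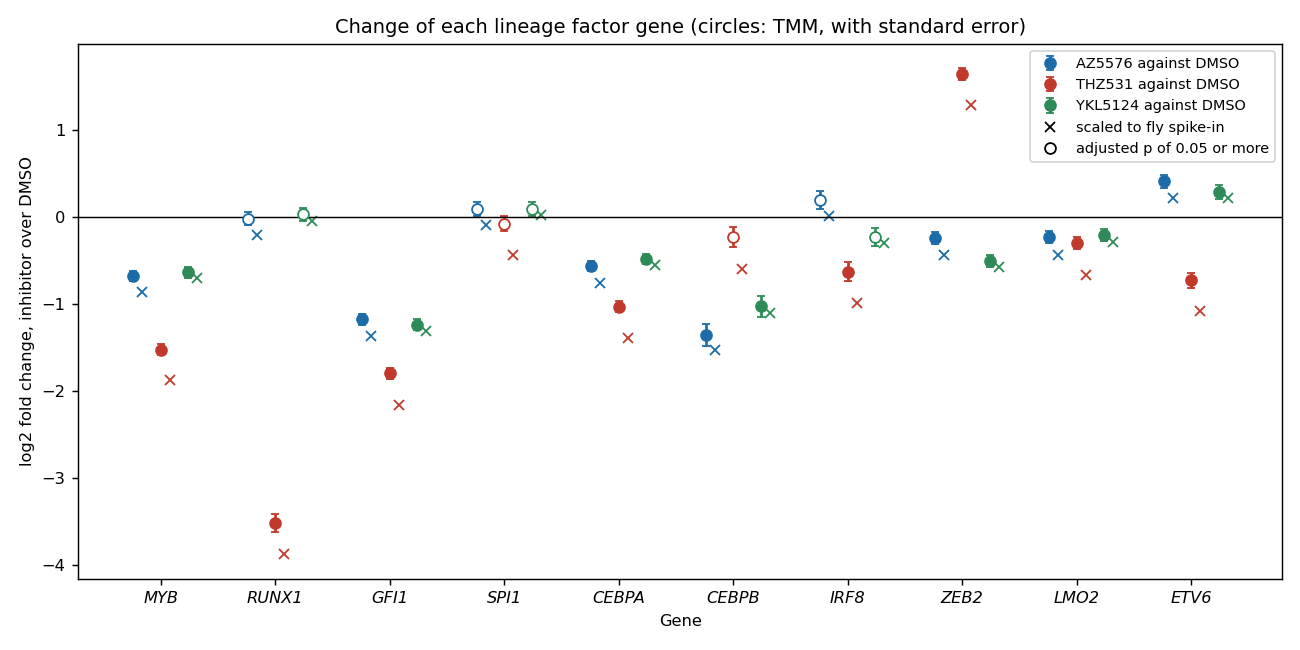
The log2 fold change of each of the 10 genes is plotted for AZ5576, THZ531 and YKL5124 against DMSO. Circles are TMM-scaled values with their standard errors, open circles have an adjusted p of 0.05 or more, and crosses are values scaled to the fly spike-in. RUNX1 stands lowest at -3.52 under THZ531, and ZEB2 highest at 1.64 under the same inhibitor.

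MYB (ENSG00000118513, GRCh38 chromosome 6, 135181315 to 135219173, plus strand, 16 exons in the transcript read) encodes a factor that sustains proliferation of myeloid progenitors. Its level was 242, 241 and 233 CPM in AZ5576, 129, 132 and 137 CPM in THZ531, 250, 253 and 234 CPM in YKL5124, and 374, 407 and 367 CPM in DMSO. Every inhibitor library lay below every DMSO library, and the THZ531 libraries lay lowest. The log2 fold change was -0.68 ± 0.06 (SE, n = 3 against 3 as throughout, adjusted p = 1.31e-10) with AZ5576, -1.53 ± 0.06 (adjusted p = 6.88e-19) with THZ531 and -0.64 ± 0.06 (adjusted p = 1.25e-09) with YKL5124.

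RUNX1 (ENSG00000159216, chromosome 21, 34787801 to 36004667, minus strand) encodes the DNA-binding subunit of core-binding factor, which is needed for definitive blood formation and is often mutated or fused in leukaemia. Its row belongs to a transcript of 8 exons that spans 262 kb. RUNX1 stood at 60.4, 69.2 and 64.2 CPM in AZ5576, 5.85, 6.05 and 5.13 CPM in THZ531, 68.9, 65.6 and 65.0 CPM in YKL5124, and 63.0, 64.2 and 68.5 CPM in DMSO. The THZ531 libraries were far below all others, and the other 3 groups overlapped. The log2 fold change of -3.52 ± 0.10 with THZ531 (adjusted p = 7.45e-22) was among the lowest of all genes tested. With all rows of RUNX1 summed it was -2.25. Against DMSO the change was -0.02 (95% interval -0.17 to 0.12) with AZ5576 and 0.03 (-0.12 to 0.17) with YKL5124.

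LMO2 (ENSG00000135363, chromosome 11, 33858576 to 33892289, minus strand, 6 exons), a bridging protein that joins TAL1 or LYL1 to GATA factors, moved least among the genes that fell under all 3 inhibitors. Its libraries read 157, 140 and 145 CPM with AZ5576, 141, 145 and 137 CPM with THZ531, 145, 146 and 160 CPM with YKL5124, and 169, 162 and 191 CPM with DMSO. All inhibitor libraries lay under the lowest DMSO library by a small margin. The log2 fold changes were -0.24 ± 0.07 (AZ5576, adjusted p = 0.00584), -0.30 ± 0.07 (THZ531, adjusted p = 0.000293) and -0.21 ± 0.07 (YKL5124, adjusted p = 0.0232). Without DMSO replicate 3, the highest of the 12, the AZ5576 value was -0.17 and the YKL5124 value -0.14, and neither passed the threshold. The YKL5124 call was also lost in 8 other alternatives. With the spike-in the values were -0.44 with AZ5576, -0.67 with THZ531 and an uncalled -0.29 with YKL5124 (adjusted p = 0.0876). With the spike-in and without DMSO replicate 3 they were an uncalled -0.25 with AZ5576, -0.48 with THZ531 and an uncalled -0.10 with YKL5124.

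ETV6 (ENSG00000139083, chromosome 12, 11649854 to 11895402, plus strand, 8 exons over 246 kb), an ETS-family repressor known from leukaemia fusions, moved in opposite directions. It gave 55.6, 59.3 and 59.6 CPM in AZ5576, 27.2, 23.8 and 28.2 CPM in THZ531, 49.3, 55.3 and 55.2 CPM in YKL5124, and 44.6, 43.0 and 43.8 CPM in DMSO. The THZ531 libraries lay below every DMSO library, and those of AZ5576 and YKL5124 lay above. ETV6 rose by a log2 fold change of 0.40 ± 0.08 with AZ5576 (adjusted p = 0.000102) and 0.28 ± 0.08 with YKL5124 (adjusted p = 0.00746), and fell with THZ531 (-0.73 ± 0.08, adjusted p = 1.09e-08). Scaled to the spike-in, both rises missed the threshold, at 0.22 with AZ5576 and 0.21 with YKL5124. Without DMSO replicate 3 in that scaling the AZ5576 value was called at 0.33 and the YKL5124 value of 0.32 was not (adjusted p = 0.0536).

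GFI1 (ENSG00000162676, chromosome 1, 92474762 to 92486876, minus strand, 7 exons) encodes a zinc-finger repressor that recruits the KDM1A complex and favours the granulocyte over the monocyte fate. Its level was 154, 175 and 149 CPM in AZ5576, 101, 107 and 99.9 CPM in THZ531, 161, 146 and 148 CPM in YKL5124, and 363, 353 and 361 CPM in DMSO. The DMSO libraries were tightly grouped and far above every inhibitor library, and the THZ531 libraries were the lowest. GFI1 fell 2.26-fold with AZ5576 (log2 -1.18 ± 0.06, adjusted p = 4.32e-15), 3.49-fold with THZ531 (log2 -1.80 ± 0.07, adjusted p = 8.28e-20) and 2.37-fold with YKL5124 (log2 -1.24 ± 0.06, adjusted p = 3.02e-15). Its change with YKL5124 was lower than that of all but 1.41% of genes.

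CEBPA (ENSG00000245848, chromosome 19, 33299934 to 33302564, minus strand, 1 exon) encodes C/EBP-alpha, which drives entry into the granulocyte and monocyte lineages. It stood at 601, 622 and 601 CPM with AZ5576, 447, 449 and 422 CPM with THZ531, 703, 576 and 648 CPM with YKL5124, and 902, 895 and 902 CPM with DMSO. The inhibitor libraries were all below DMSO, and YKL5124 spread most. The log2 fold changes were -0.57 ± 0.06 (adjusted p = 8.36e-09), -1.03 ± 0.06 (adjusted p = 5.59e-15) and -0.49 ± 0.06 (adjusted p = 3.64e-07) with AZ5576, THZ531 and YKL5124. The exon overlaps exons of AC008738.3 and AC008738.5 on the plus strand, and the strand setting of the counting is not given, so reads of these genes cannot be told apart here.

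CEBPB (ENSG00000172216, chromosome 20, 50190734 to 50192689, plus strand, 1 exon) encodes C/EBP-beta, an inducible factor of macrophage activation. Its level was 9.09, 16.2 and 12.6 CPM in AZ5576, 26.9, 25.3 and 25.9 CPM in THZ531, 15.2, 16.2 and 13.8 CPM in YKL5124, and 31.1, 27.3 and 33.4 CPM in DMSO. AZ5576 and YKL5124 lay well below DMSO, and THZ531 lay just under it. CEBPB fell 2.57-fold with AZ5576 (log2 -1.36 ± 0.13, adjusted p = 5.25e-10) and 2.04-fold with YKL5124 (log2 -1.03 ± 0.12, adjusted p = 1.20e-07). With THZ531 the value was -0.24 (95% interval -0.46 to -0.01, adjusted p = 0.0694), and it passed the threshold in 10 alternatives, among them the spike-in scaling at -0.60, or -0.42 without DMSO replicate 3. The exon overlaps CEBPB-AS1 on the minus strand, which cannot be told apart either.

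SPI1 (ENSG00000066336, chromosome 11, 47354860 to 47378576, minus strand, 5 exons) encodes PU.1, the ETS factor that macrophage development requires. SPI1 gave 32.1, 32.6 and 34.2 CPM in AZ5576, 27.6, 30.7 and 29.6 CPM in THZ531, 33.6, 32.5 and 32.8 CPM in YKL5124, and 33.4, 28.3 and 31.2 CPM in DMSO. The DMSO libraries overlapped those of each inhibitor, and no comparison of SPI1 was called. Its log2 fold changes against DMSO were 0.09 (95% interval -0.08 to 0.25) with AZ5576, -0.08 (-0.25 to 0.09) with THZ531 and 0.09 (-0.08 to 0.25) with YKL5124, so changes beyond about 0.25 in either direction lie outside the intervals. These intervals hold for TMM, and with the spike-in SPI1 fell by 0.44 under THZ531.

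IRF8 (ENSG00000140968, chromosome 16, 85898803 to 85922609, plus strand, 9 exons) encodes an interferon regulatory factor of monocyte and dendritic cell fate. Its level was 93.0, 137 and 90.3 CPM with AZ5576, 59.0, 59.4 and 58.1 CPM with THZ531, 86.4, 75.3 and 71.8 CPM with YKL5124, and 82.7, 100.5 and 91.0 CPM with DMSO. AZ5576 replicate 2 was the highest of the 12 libraries, and the THZ531 libraries were the lowest. IRF8 fell under THZ531 (log2 -0.63 ± 0.11, adjusted p = 6.76e-06, and -0.99 with the spike-in). It was not called with AZ5576 (0.20 ± 0.10, adjusted p = 0.127) or YKL5124 (-0.23 ± 0.10, adjusted p = 0.109). The AZ5576 value was 0.01 without AZ5576 replicate 2, and it passed the threshold at 0.28 without replicate 1 and 0.30 without replicate 3.

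ZEB2 (ENSG00000169554, chromosome 2, 144364364 to 144524583, minus strand) encodes a zinc-finger repressor that acts in monocyte and dendritic cell differentiation. Its row read 100, 105 and 89.8 CPM in AZ5576, 352, 371 and 364 CPM in THZ531, 86.3, 81.2 and 77.6 CPM in YKL5124, and 122, 113 and 114 CPM in DMSO. The groups did not overlap, and THZ531 stood alone above DMSO. ZEB2 rose under THZ531 (log2 1.64 ± 0.07, adjusted p = 4.98e-19), above 98.4% of genes tested, and by 0.94 with all its rows summed. It fell with AZ5576 (-0.25 ± 0.07, adjusted p = 0.00383, and -0.44 with the spike-in) and YKL5124 (-0.51 ± 0.07, adjusted p = 1.05e-06). The AZ5576 call was lost without AZ5576 replicate 3 (-0.18) and with rows summed per gene (-0.09). As described further on, this row is not the end of the full-length ZEB2 mRNA.

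**Figure D2:**
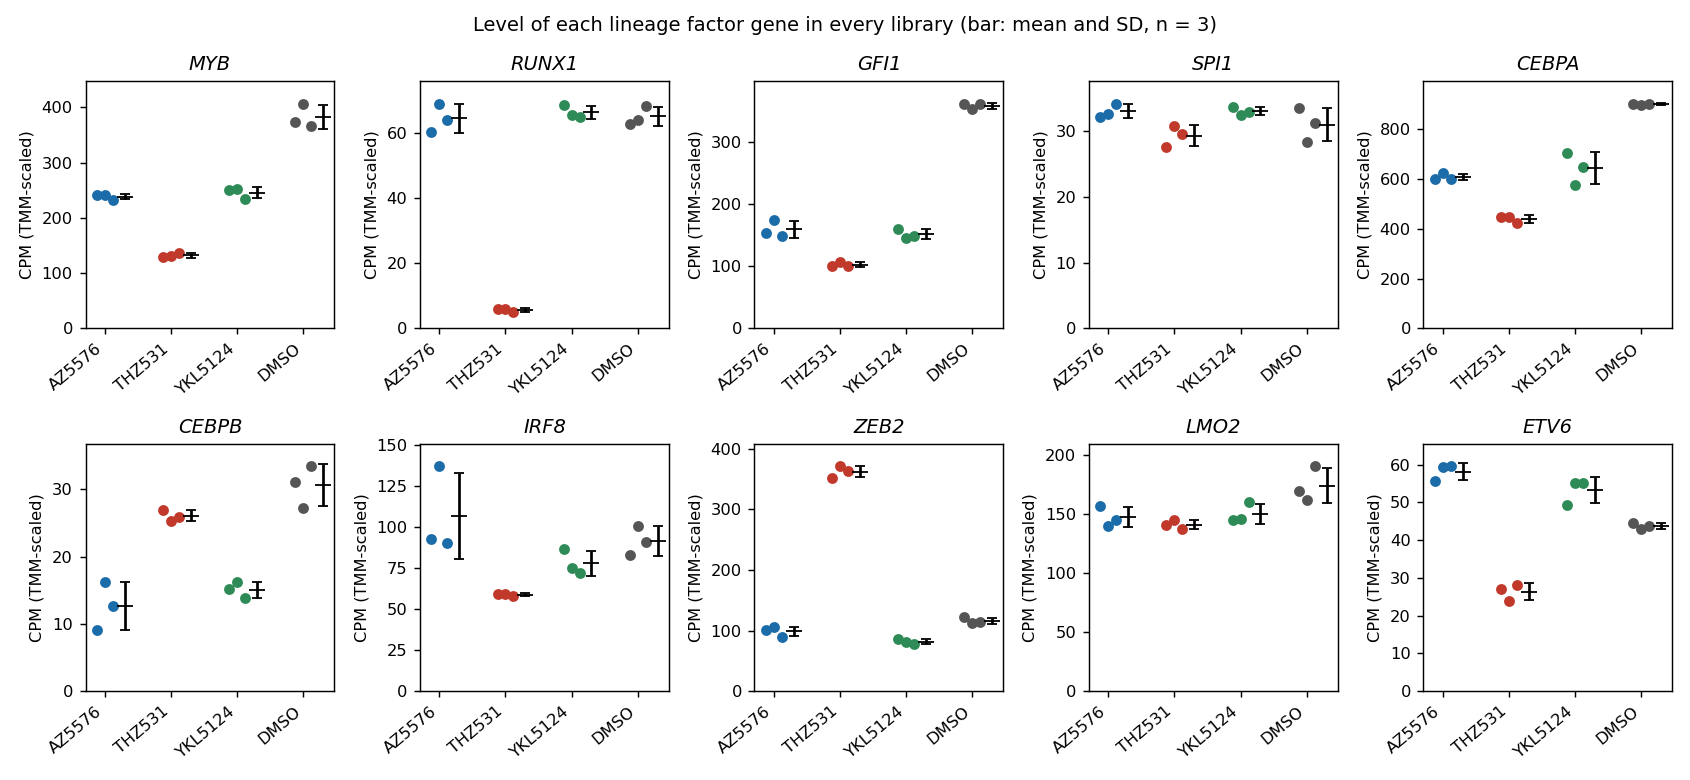
Each panel shows 1 gene, with TMM-scaled CPM on the vertical axis and the AZ5576, THZ531, YKL5124 and DMSO groups along the horizontal axis. Points are libraries and bars are the mean and SD of 3. MYB, GFI1 and CEBPA lie lower in every inhibitor library than in DMSO, RUNX1 drops in THZ531 alone, and ZEB2 in THZ531 reaches 352 to 371 CPM.

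MYB, GFI1 and CEBPA fell together under all 3 inhibitors, and their promoters are shown for reference. RefSeq promoter windows (GRCh38.p14, 300 bases around a transcription start) were found for 8 of the 10 genes, in 12 windows, and SPI1 and LMO2 had none. The sequences run 5′ to 3′ on the strand of the gene. Capitals mark matches, on either strand, to letters that the factors themselves are known to bind or to the TATA box: TGTGGT for RUNX, TTGCNNAA for C/EBP, AACNGT for MYB, GAGGAA for PU.1 and TATAAA for the TATA box. Of the 3 GFI1 windows the second is printed because it holds the most matches. It lies downstream of the annotated start of the GFI1 transcript read, at 92486876. The first window reaches that start and holds no match, and the third holds the PU.1 letters once.
MYB, chr6:135181058-135181357, plus strand: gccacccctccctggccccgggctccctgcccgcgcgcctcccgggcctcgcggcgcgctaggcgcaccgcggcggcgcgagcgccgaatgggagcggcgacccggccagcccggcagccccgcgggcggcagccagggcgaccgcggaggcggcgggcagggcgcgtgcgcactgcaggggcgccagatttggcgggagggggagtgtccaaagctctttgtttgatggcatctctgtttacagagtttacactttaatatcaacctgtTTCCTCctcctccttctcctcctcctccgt
GFI1, chr1:92486050-92486349, minus strand, the second of 3 windows: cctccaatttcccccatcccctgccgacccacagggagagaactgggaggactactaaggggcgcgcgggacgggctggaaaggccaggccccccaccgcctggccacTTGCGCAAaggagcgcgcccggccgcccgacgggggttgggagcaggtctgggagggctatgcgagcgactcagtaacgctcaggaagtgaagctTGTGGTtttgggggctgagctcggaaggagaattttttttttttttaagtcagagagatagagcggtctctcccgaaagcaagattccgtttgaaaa
CEBPA, chr19:33302485-33302784, minus strand: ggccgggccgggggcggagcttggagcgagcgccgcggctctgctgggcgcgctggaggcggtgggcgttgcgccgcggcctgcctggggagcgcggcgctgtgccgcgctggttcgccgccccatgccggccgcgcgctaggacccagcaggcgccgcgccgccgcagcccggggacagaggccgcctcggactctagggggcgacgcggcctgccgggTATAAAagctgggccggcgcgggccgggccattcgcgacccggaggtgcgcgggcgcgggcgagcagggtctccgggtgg
The MYB window holds the PU.1 letters once, read on the opposite strand. The GFI1 window holds the C/EBP and RUNX letters, and the CEBPA window holds the TATA letters alone. Over all 35116 RefSeq windows the RUNX letters are in 13.1%, the C/EBP letters in 10.5%, the MYB letters in 21.7%, the PU.1 letters in 27.9% and the TATA letters in 11.5%. Over the 12 windows of these genes the counts are 2, 1, 1, 4 and 2. Their median GC content is 67.8%, against 58.7% for all windows. These matches describe letters and not binding.

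The table holds several rows for a gene. Rows of different annotated transcripts can differ in where the 3′ end lies. Some rows, as in MYB, belong to the same transcript and were placed at or near its end, whichever stretch they count. Rows of MYB, RUNX1, IRF8 and ZEB2 moved in opposite directions under THZ531. In each of these genes at least 1 row of a transcript that ends short of the far end rose. The row that carries most counts at the far end fell. Not every row short of the far end rose, and in MYB and IRF8 not every far row fell. In ZEB2 all rows of transcripts that end 58.2 to 116 kb from the start fell. These changes come from a fit of 46332 distinct rows, where 52.9% were called under THZ531, 26.2% higher and 26.7% lower. In the same fit 29.2% were called with AZ5576 (12.5% higher, 16.8% lower) and 12.6% with YKL5124 (4.01% higher, 8.58% lower). Rows with at least 100 counts are given here, and those named were chosen after their values had been seen. Rows of 1 gene overlap and can share reads, and the exact stretch that each row counts is not given in the table. Some are nearly the same. ENST00000482318 and ENST00000399240 of RUNX1 total 1572 and 1571 counts. The row read for MYB and that of ENST00000316528 total 32151 and 32094. ENST00000461784, ENST00000434448 and ENST00000479735 of ZEB2 total 1406, 1400 and 1396. Numbers of rows that rose or fell are therefore not numbers of separate ends. Positions are those of the annotated transcripts. CPM of rows are on the scale of the gene fit, and log2 fold changes of rows have the scaling of the row fit, so they need not match exactly.

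For ZEB2, 3 of 13 rows rose and 10 fell under THZ531. The row used for the gene is that of ENST00000625161, a transcript of 1 exon listed as a retained intron, which ends 8.62 kb from the start of the full-length transcript. The row of ENST00000465070, which ends at nearly the same place, stood at 284, 294 and 282 CPM in THZ531 and 76.0, 73.5 and 72.3 CPM in DMSO (log2 1.90 ± 0.07, adjusted p = 4.71e-21). The far row is shared by ENST00000303660, ENST00000409487 and others, of which the longest end 132 kb from the start. It stood at 5.07, 3.74 and 4.91 CPM in THZ531 and 24.3, 21.8 and 23.4 CPM in DMSO. It fell by 2.40 ± 0.14 on the log2 scale (adjusted p = 1.40e-16), so the near and far ends of ZEB2 moved apart. The row of ENST00000472146, 93.5 kb from the start, fell as well (-2.28 ± 0.12, adjusted p = 5.27e-18). With AZ5576 the far row was not called (0.10 ± 0.10) and with YKL5124 it fell (-0.55 ± 0.11, adjusted p = 0.000384).

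RUNX1 had 5 such rows, of which 2 rose and 3 fell under THZ531. The row of ENST00000358356, a short protein-coding form that ends 228 kb from the start of the 262-kb transcript, held 4.03, 6.28 and 7.15 CPM in THZ531 and 0.814 to 1.099 CPM in DMSO. It rose by a log2 fold change of 2.56 ± 0.30 (adjusted p = 7.57e-09), to a level near that of the far row in the same libraries, which was 5.13 to 6.05 CPM. The form itself is annotated to start at 34888690, inside the span of the 262-kb transcript. Counts at 3′ ends do not show which start was used. The row of ENST00000469087, a retained-intron form that ends 216 kb from the start, rose by 0.58 ± 0.15 (adjusted p = 0.00121), and with the spike-in it missed the threshold at 0.28. That row fell with AZ5576 (-0.84 ± 0.17, adjusted p = 0.000265). The row of ENST00000399240, which ends in the same last exon as the far row, fell under THZ531 (-2.17 ± 0.16, adjusted p = 1.05e-13).

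MYB had 13 such rows, of which 2 rose and 7 fell under THZ531. The short row of ENST00000430686 ends 13.4 kb from the start of the 37.9-kb gene and held 7.28, 8.48 and 9.08 CPM in THZ531 and 2.81, 1.52 and 1.80 CPM in DMSO (log2 1.94 ± 0.23, adjusted p = 6.25e-09). The row of ENST00000420123, which ends in the same exon, rose by 2.23 ± 0.38 (adjusted p = 7.71e-06). The far row that represents MYB fell by 1.58 ± 0.07 on the log2 scale in the same fit. Of the 11 rows of transcripts that end 36.7 kb or further from the start, 7 fell and 4 were not called, among them ENST00000531634 at 0.38 ± 0.37. Some of these rows belong to the same transcript, so they are not 11 separate ends and may count stretches before the end. The short rows were far below the representing row in level.

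IRF8 had 5 such rows, and 1 rose and 2 fell under THZ531. The row of ENST00000563180, which ends 11.1 kb from the start of the 23.8-kb transcript, held 4.94, 5.94 and 5.02 CPM in THZ531 and 1.70, 1.42 and 0.942 CPM in DMSO (log2 1.91 ± 0.28, adjusted p = 5.34e-07). A nearer end did not always go with a rise, nor a far end with a fall. The row of ENST00000566369 ends 23.5 kb from the start, close to the far row, and stood at 14.2, 15.2 and 13.5 CPM in THZ531 and 12.2, 11.6 and 12.7 CPM in DMSO. It was not called (0.18 ± 0.12, adjusted p = 0.227, and -0.13 with the spike-in). The retained-intron row of ENST00000570088 ends 4.73 kb from the start and fell (-0.64 ± 0.15, adjusted p = 0.00036). For ETV6 both rows fell, at -0.78 ± 0.09 and -0.63 ± 0.14, and for SPI1 none of 3 rows was called. GFI1, CEBPA, CEBPB and LMO2 each had 1 such row.

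**Figure D3:**
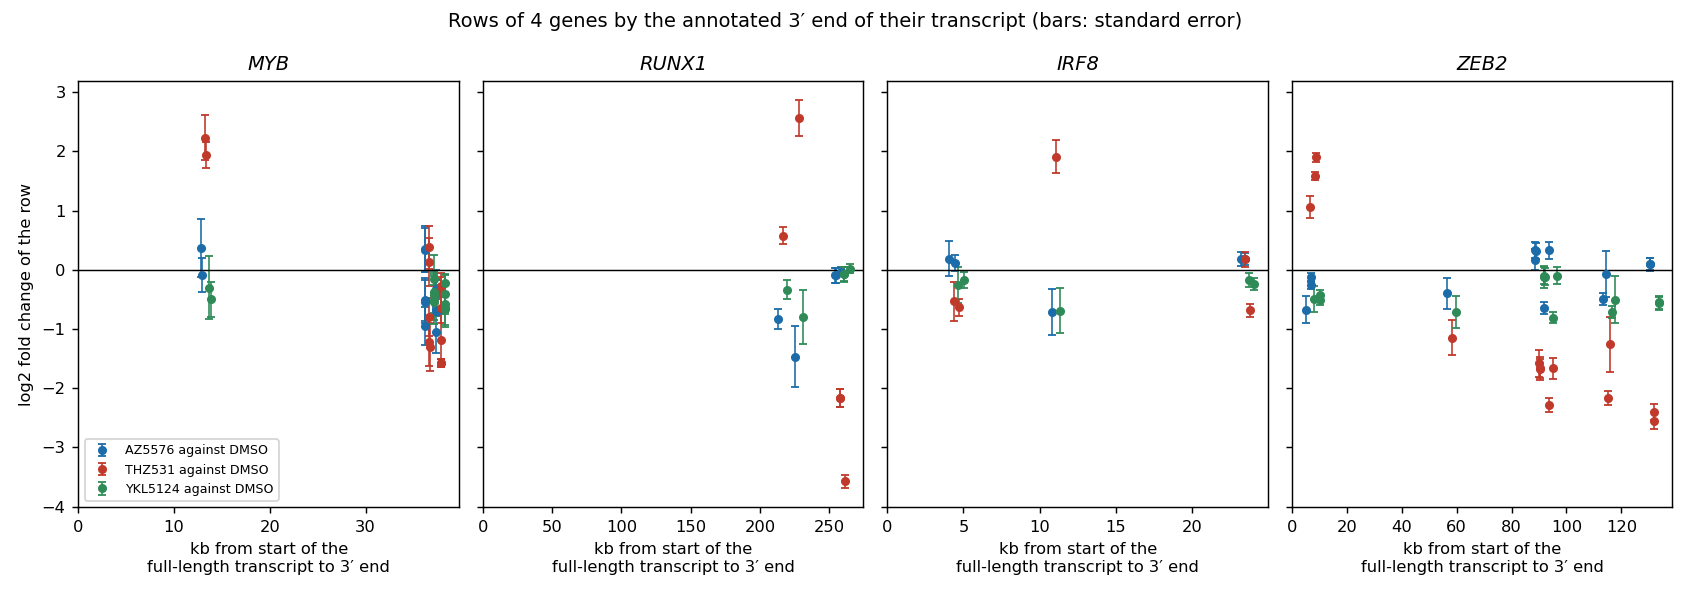
For MYB, RUNX1, IRF8 and ZEB2, the log2 fold change of every row with at least 100 counts against DMSO is plotted over the distance in kb from the start of the full-length transcript to the annotated 3′ end. Colours are the 3 inhibitors, bars are standard errors, and points are shifted slightly sideways so that they can be seen. Under THZ531 the rows of MYB near 13 kb and of ZEB2 near 8.6 kb lie above 0, and the far rows of highest count lie between -0.68 and -3.57, while the IRF8 row at 23.5 kb stands at 0.18.

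The ends of these transcripts are shown because the rows differ by them. Each line gives 30 bases of the GENCODE v29 transcript, 5′ to 3′, which are the last 30 except for RUNX1, where they begin at the signal 31 bases before the end. Capitals mark AATAAA, the common polyadenylation signal.
MYB far, ENST00000339290: tgtagcaaAATAAAgatgtgcccttatttt
MYB near, ENST00000430686: taattgcAATAAAaatgcaatatccactta
RUNX1 far, ENST00000300305: AATAAAcagtttgacaagtacatacaccat
RUNX1 near, ENST00000358356: AATAAAtggtcaatgttattctttttcact
ZEB2 far, ENST00000409487: accatgctcgAATAAAaatgtagccaaact
ZEB2 near, ENST00000625161: agttacaaagtaAATAAAggatttcatttt
The 6 ends printed were chosen because they carry these letters within 31 bases of the end, and not all ends do. The other near rows of ENST00000420123 (MYB) and ENST00000462355 (ZEB2) rose under THZ531 and have neither AATAAA nor ATTAAA in their last 100 bases. Nor has the annotated end of ENST00000303660, so the far ZEB2 row is shown by ENST00000409487, which shares it. The near IRF8 end, of ENST00000563180, has neither AATAAA nor ATTAAA in its last 100 bases, and the far end, of ENST00000268638, has both.

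The share of near counts among near plus far counts puts these rows on 1 scale. For RUNX1 it was 40.8%, 50.9% and 58.3% in THZ531, against 0.13% to 0.85% in AZ5576, 0.524% to 0.983% in YKL5124 and 1.27% to 1.58% in DMSO. The THZ531 shares rest on 76, 112 and 115 counts, and their exact 95% binomial intervals run between 29.6% and 67.4% in all. For MYB the share was 5.35%, 6.03% and 6.20% in THZ531, against 0.71% to 0.894% in AZ5576, 0.386% to 0.845% in YKL5124 and 0.372% to 0.745% in DMSO. For IRF8 it was 7.72%, 9.09% and 7.95% in THZ531, against 0.512% to 1.28% in AZ5576, 0.858% to 1.26% in YKL5124 and 1.02% to 2.02% in DMSO. ZEB2 was mostly near in every group, with 98.6%, 99.0% and 98.7% in THZ531, 78.3% to 80.6% in AZ5576, 82.2% to 84.6% in YKL5124 and 83.0% to 83.8% in DMSO. In all 4 genes each THZ531 library lay above every other library. The far row of each pair is the one with most counts at the far end, so the IRF8 share leaves out ENST00000566369. The near rows used all rose under THZ531, and other near rows are left out. For IRF8 these include ENST00000570088, which fell, with means of 13.6 CPM in THZ531 and 20.3 CPM in DMSO. For RUNX1 ENST00000469087 is left out, with means of 13.1 CPM in THZ531 and 8.40 CPM in DMSO. Both held more counts than the near row used, so the shares hold for these pairs only. The pairs were picked after their changes were seen, so these shares are a description without a test, and intervals cover counting error only.

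**Figure D4:**
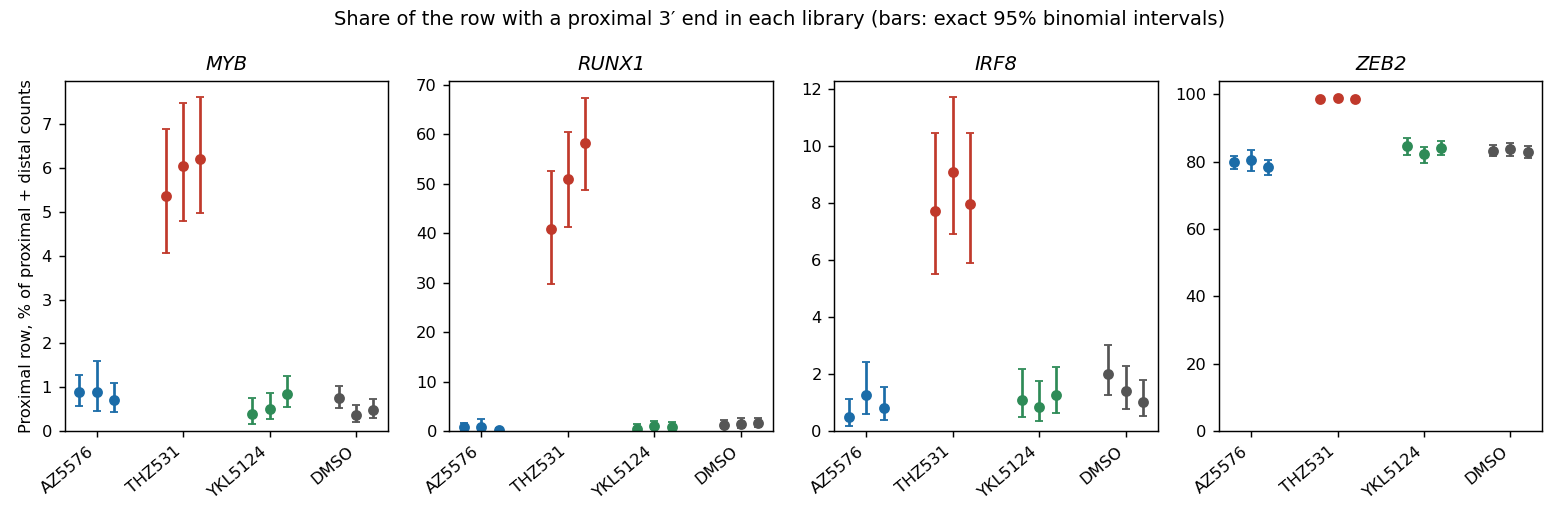
The percentage of near-end counts among near-end plus far-end counts is plotted for each library of AZ5576, THZ531, YKL5124 and DMSO, with exact 95% binomial intervals. The vertical scale differs between genes. The THZ531 libraries stand above the rest for MYB, RUNX1, IRF8 and ZEB2, with RUNX1 at 40.8% to 58.3%.

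Whether gene span sets the 10 genes apart was not tested. Over protein-coding genes, the median log2 fold change under THZ531 was 0.11 for genes under 10 kb, 0.01 for 10 to 50 kb, -0.20 for 50 to 200 kb and -0.30 for over 200 kb. RUNX1 and ETV6, both over 200 kb, fell under THZ531, and so did CEBPA, whose single exon covers 2.63 kb. MYB, GFI1, IRF8 and LMO2, all of 10 to 50 kb, fell as well. SPI1, of the same class, and CEBPB, under 10 kb, were not called. The row read for ZEB2, a gene of 50 to 200 kb, rose. With AZ5576 the median was 0.22 for genes over 200 kb and -0.04 for 10 to 50 kb, and with YKL5124 it was 0.16 and -0.05. ETV6 at 0.40 and 0.28 lay above those medians of the longest genes, and RUNX1 at -0.02 and 0.03 lay below them.

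More of the 10 genes were called between THZ531 and either other inhibitor than between AZ5576 and YKL5124. The same held over all genes tested, so this is not particular to the 10 genes. In AZ5576 against YKL5124, 2 of the 10 genes were called, both higher with AZ5576, where 15.8% of all genes were called, 6.23% higher and 9.60% lower. They were IRF8 (log2 0.43 ± 0.10, adjusted p = 0.00454) and ZEB2 (0.26 ± 0.07, adjusted p = 0.00875). Without AZ5576 replicate 2 the values were 0.24 for IRF8 (adjusted p = 0.0388) and 0.22 for ZEB2 (adjusted p = 0.0341), and with the spike-in neither was called, although without DMSO replicate 3 in that scaling IRF8 was. For MYB, GFI1 and CEBPA the 95% intervals of the difference were -0.16 to 0.08, -0.06 to 0.19 and -0.20 to 0.04. CEBPB was lower with AZ5576 by an uncalled -0.33 (-0.61 to -0.05, adjusted p = 0.111), which was called at -0.48 without AZ5576 replicate 2.

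In AZ5576 against THZ531, 6 genes were higher and 2 lower with AZ5576, where 55.0% of all genes were called, 27.8% higher and 27.2% lower. RUNX1 (log2 3.50 ± 0.11, 11.3-fold) and ETV6 (2.20-fold) differed most among the higher genes, and ZEB2 (-1.89 ± 0.07) and CEBPB (-1.12 ± 0.13) were the lower ones. In THZ531 against YKL5124, 2 genes were higher and 6 lower with THZ531, where 61.0% of all genes were called, 30.5% higher and 30.5% lower. The row read for ZEB2 (2.15 ± 0.07) and CEBPB (0.79 ± 0.13, adjusted p = 3.40e-06) were higher with THZ531. The far row of ZEB2 went the other way in the row fit. That row was at -1.85 ± 0.15 in THZ531 against YKL5124 and at 2.50 ± 0.14 in AZ5576 against THZ531. MYB was lower with THZ531 than with YKL5124 by -0.89 ± 0.06 and GFI1 by -0.56 ± 0.07, so for both the fall was deepest with THZ531. With TMM, SPI1 and LMO2 were not called between any inhibitors. In THZ531 against YKL5124, where their values were -0.17 and -0.09, SPI1 was called lower in 8 alternatives (-0.20 to -0.45) and LMO2 in 4 (-0.15 to -0.38). In AZ5576 against THZ531, SPI1 was called higher in 4 alternatives (0.22 to 0.34) and LMO2 in 2 (0.23 in both).

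Among 50 other transcription factors of blood lineages, 42 passed the filter. In AZ5576 against DMSO 6 rose and 23 fell, in THZ531 against DMSO 11 rose and 24 fell, and in YKL5124 against DMSO 1 rose and 19 fell. Over all genes tested the shares higher and lower were 18.6% and 23.1% with AZ5576, 30.4% and 32.9% with THZ531, and 7.25% and 13.5% with YKL5124. The list's median log2 fold changes were -0.24, -0.40 and -0.30, and with the spike-in -0.43, -0.75 and -0.36, where 0, 3 and 0 were called higher and 23, 26 and 19 lower (over all genes 3.18%, 7.21% and 3.27% higher, and 28.2%, 45.5% and 12.4% lower). Without DMSO replicate 3 in that scaling 1, 5 and 1 were higher and 23, 25 and 12 lower. CEBPD, a paralogue of CEBPB, fell with all 3 inhibitors (-1.77, -0.45 and -1.08 with AZ5576, THZ531 and YKL5124), and ETS2 fell most with AZ5576 (-2.11, adjusted p = 6.68e-15). CEBPE, a late granulocyte factor, fell with AZ5576 (-1.47) and THZ531 (-1.26) and had an uncalled -0.53 with YKL5124. IKZF1 (-1.97, adjusted p = 4.57e-19) and SATB1 (-1.67, adjusted p = 3.19e-19), chromatin-organising lymphoid and progenitor factors, had the smallest adjusted p under THZ531. E2F2, a cell-cycle factor, fell most with YKL5124 (-1.59, adjusted p = 2.74e-12). CBFB, the partner subunit of RUNX1, rose with AZ5576 (0.25, adjusted p = 0.0089) and THZ531 (0.31, adjusted p = 0.000559), but was uncalled at 0.06 and -0.05 with the spike-in (0.19 and 0.09 without DMSO replicate 3). RUNX2 fell with THZ531 (-0.89) and YKL5124 (-0.43). HHEX, a homeobox factor of early blood progenitors picked after its values were seen, rose under THZ531 (1.51). It fell with AZ5576 (-1.52) and YKL5124 (-0.99), and these were the directions of the row read for ZEB2.

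Cofactors that these proteins recruit moved both ways under AZ5576 and THZ531 with TMM. Of 24 listed, 23 passed the filter, and 6 rose and 10 fell with AZ5576, 9 rose and 11 fell with THZ531, and 1 rose and 7 fell with YKL5124. The shares of all genes higher and lower were 18.6% and 23.1%, 30.4% and 32.9%, and 7.25% and 13.5% with AZ5576, THZ531 and YKL5124. The single rise with YKL5124 was lost in 12 alternatives, the replicate block among them. With the spike-in 0, 1 and 0 were called higher and 10, 14 and 5 lower, and without DMSO replicate 3 in that scaling 2, 5 and 0 were higher and 7, 13 and 2 lower. CBFA2T3, a co-repressor of the ETO family, fell with every inhibitor (-0.82, -2.60 and -0.64 with AZ5576, THZ531 and YKL5124). The histone deacetylase HDAC1 rose with THZ531 (0.71, adjusted p = 4.66e-11, and 0.35 with the spike-in), TLE3 fell with AZ5576 (-0.65, adjusted p = 5.61e-08) and TLE4 with YKL5124 (-0.47, adjusted p = 0.000882). KDM1A, the demethylase that GFI1 recruits and a gene picked after its value was seen, rose with THZ531 (0.59, adjusted p = 1.29e-07) but was uncalled at 0.23 with the spike-in, and called at 0.31 without DMSO replicate 3 in that scaling.

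The direction of genes that lineage factors are known to switch on in myeloid cells depended on the scaling. Of 26 listed, 22 passed the filter, and with TMM 9 rose and 0 fell with AZ5576, 10 rose and 3 fell with THZ531, and 2 rose and 0 fell with YKL5124. Over all genes the shares higher and lower were 18.6% and 23.1%, 30.4% and 32.9%, and 7.25% and 13.5%, so the 2 higher with YKL5124 are near the background. At an unadjusted p under 0.05 in edgeR, 1 fell with AZ5576 and 3 with YKL5124, and DESeq2 called 0 lower in both. The median log2 fold changes with TMM were 0.18, 0.21 and 0.08 with AZ5576, THZ531 and YKL5124. Scaled to the spike-in the medians were -0.015, -0.14 and 0.0072, with 0 genes called higher under any inhibitor and 2, 8 and 0 called lower. Without DMSO replicate 3 in that scaling the medians were 0.12, 0.0082 and 0.13, with 4, 3 and 1 higher and 0, 7 and 0 lower. By library size alone the THZ531 median was -0.08, with 4 higher and 7 lower. With TMM, ELANE, the neutrophil elastase gene, rose with all 3 inhibitors (0.47, 0.58 and 0.24 with AZ5576, THZ531 and YKL5124), and so did FCER1G, a signalling chain of Fc receptors (0.43, 0.47 and 0.30). With the spike-in neither was called, at 0.27, 0.22 and 0.17 for ELANE and 0.24, 0.12 and 0.23 for FCER1G. Without DMSO replicate 3 in that scaling ELANE was called with AZ5576 (0.44) and THZ531 (0.38), and FCER1G with AZ5576 (0.33) and YKL5124 (0.31). The 13 monocytic markers all stand in this list.

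**Figure D5:**
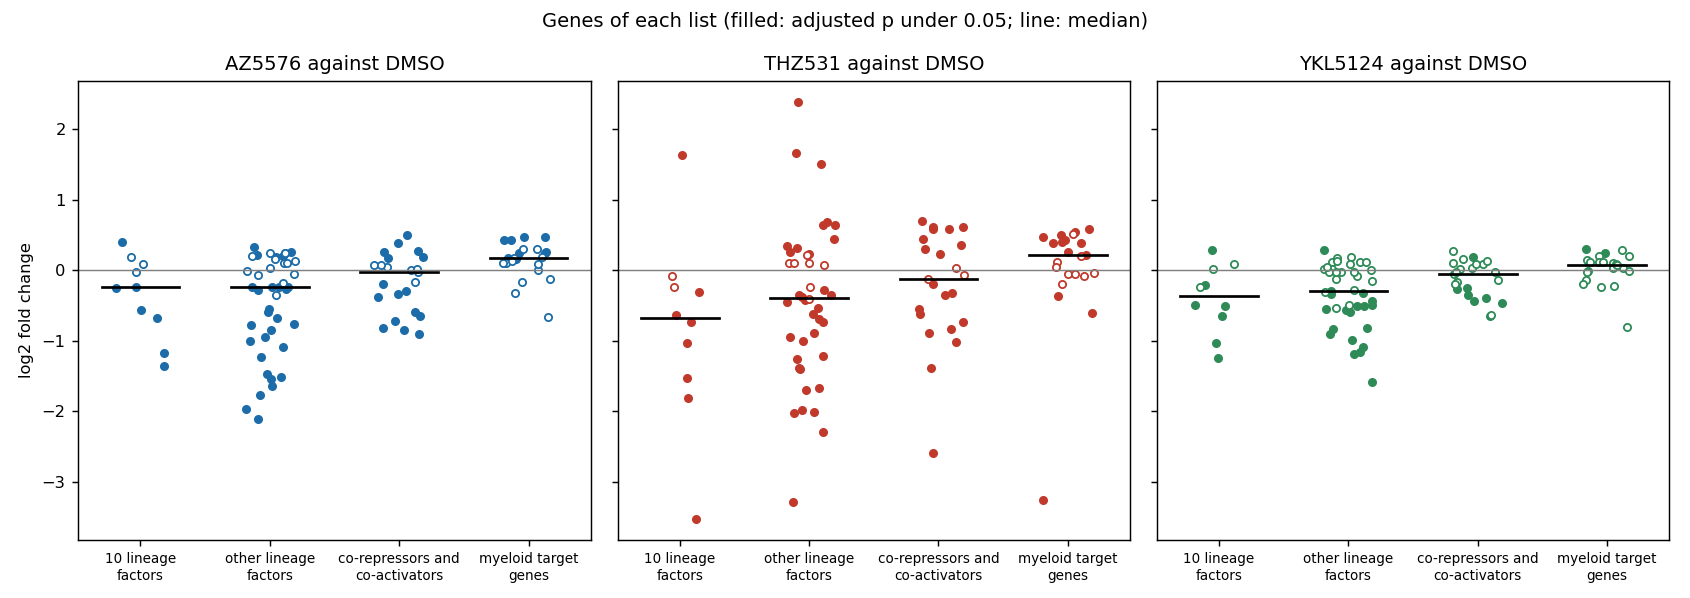
Log2 fold changes against DMSO of the 10 lineage factors, other lineage factors, cofactors and myeloid target genes are plotted for AZ5576, THZ531 and YKL5124. Filled points have an adjusted p under 0.05 and lines are medians. The medians of the 10 lineage factors (-0.24, -0.68 and -0.36) lie below 0, and those of the target genes (0.18, 0.21 and 0.08) lie above it with the TMM scaling plotted here, but at -0.015, -0.14 and 0.0072 with the spike-in (0.12, 0.0082 and 0.13 without DMSO replicate 3).

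The genes with the most similar pattern over the 12 libraries were taken from 7307 protein-coding genes averaging 10 CPM or more, by Pearson's r of log2 CPM, as a description. The 12 points fall into 4 groups, so r follows the group means. MYB was most like ANKRD11 (r = 0.995) and RMI1 (0.992), and RUNX1 most like TUBGCP3 (0.998) and BCL2 (0.998). GFI1 was most like C9orf40 (0.982) and JMJD6 (0.980), and CEBPA most like CXorf21 (0.983) and BLOC1S4 (0.980). CEBPB was most like B4GALT5 (0.963) and ZNF678 (0.962). ZEB2 was most like HOXA10 (0.993) and TAF5L (0.993), and ETV6 most like SLC39A11 (0.991) and BMPR2 (0.991). IRF8 was most like PHF5A (0.954) and PDS5A (0.947), LMO2 most like OGG1 (0.932) and F8A3 (0.919), and SPI1, with the least change, most like CXorf38 (0.911) and ACTR3B (0.880).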

How the data were processed

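The table that the authors deposited holds raw counts (whole numbers without normalisation) of 12 libraries over 295100 rows. Per the submitters' processing notes, the tools were edgeR 3.32.1, Trim Galore 0.6.5 and bcl2fastq 2.17.1.14, and the builds were dm6 and hg38. For the aligner, counter, annotation and strand setting: not given in the sources used here. Libraries were made with a QuantSeq forward 3′ kit, with Drosophila S2 material added, per the labels' protocols. The DMSO group rests on columns with the name UT.

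GENCODE v29 named 251529 of 256726 human rows, and 5197 unnamed ones (0.655% to 0.719% of counts) were left out. In 98.8% of 72156 transcripts with an annotated 3′-UTR the number of rows equalled the number of its stretches. Rows overlap, so each gene was represented by its row of highest total. Of genes with identical counts, 94 were dropped.

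Tests used edgeR 4.0.16 (R 4.3.3): a filterByExpr minimum count of 10, TMM over human genes, and a quasi-likelihood model of group alone fitted to all 12 libraries together. Benjamini-Hochberg adjustment ran over all genes, or over all 46332 rows in the row fit. SE is the log2 fold change over the root of F. Log2 CPM used a prior count of 2. On simulated counts for THZ531 against DMSO (15313 genes, 200 changed), 58.2% of 1.5-fold, 77.6% of 2-fold and 100% of 4-fold changes were called, and 4.85% of calls were of unchanged genes. The simulation changed few genes, about evenly up and down. In the data 63.4% of genes were called with THZ531, so these rates need not hold there. Replicates differed beyond sampling noise (chi-square per gene 1.67 to 4.82).

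The genes, gene lists and comparisons were chosen with earlier results of these data known. Named genes are the 10 factors, 2 genes a list by smallest adjusted p in every comparison with DMSO, the first paralogues or partners that passed the filter (CEBPD, CEBPE, CBFB, RUNX2), the 2 genes most like each factor, and any said to be picked later. Alternatives were RLE, upper quartile, library size and fly spike-in scaling, DESeq2 1.42.0, other filters, the 6 libraries compared, a replicate block, each library left out, rows summed per gene, the row with the highest DMSO total, rows tested on their own and, chosen after seeing the data, spike-in scaling without DMSO replicate 3. Sequences are from GENCODE v29 transcripts and the RefSeq promoter table (GRCh38.p14).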

Additional observations from a re-analysis of the deposited data

How the results depend on the processing

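Of 1500 recomputed log2 fold changes of the 10 genes, 1406 kept their direction and their side of the threshold, 41 gained a call and 24 lost one. The counts of genes called kept within 1.5 times in 285 of 300 cases. Genes higher with AZ5576 than with DMSO numbered 2 under upper quartile scaling, 0 with the fly spike-in and 1 to 2 over the alternatives that each left out 1 library. Genes higher with YKL5124 than with DMSO numbered 0 with the spike-in, 0 with the spike-in and no DMSO replicate 3, and 0 with rows summed per gene. Between AZ5576 and YKL5124, library size alone gave 1 higher and 2 lower, the spike-in 0 higher, the spike-in with no DMSO replicate 3 gave 1 higher and 1 lower, DESeq2 1 higher, and leaving out 1 library 1 to 2 higher and 0 to 1 lower.

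The spike-in without DMSO replicate 3 was chosen after seeing the data. The 29 reversals among the genes were all of uncalled values near 0, and the cause was not tested. RUNX1 with AZ5576 against DMSO was 0.0287 under upper quartile scaling and -0.0596 to 0.0240 with 1 library left out. RUNX1 with YKL5124 was -0.0498 with the spike-in, -0.00139 with no filter, -0.00372 with rows summed and -0.00276 to 0.0602 with 1 library left out. SPI1 with AZ5576 against DMSO was -0.0350 by library size and -0.0953 with the spike-in. SPI1 in AZ5576 against YKL5124 was -0.0139 with RLE, -0.00792 with the upper quartile, -0.101 by library size, -0.113 with the spike-in (-0.110 with no DMSO replicate 3), -0.0140 with DESeq2, -0.0126 with the strict filter, -0.00118 in 6 libraries, -0.00287 with rows on their own, -0.000875 with the replicate block and -0.0263 to 0.0277 with 1 library left out. In the same comparison GFI1 was -0.0369 by library size, -0.0551 with the spike-in, with or without DMSO replicate 3, and -0.000847 to 0.111 with 1 library left out, LMO2 was -0.0720 to 0.0244 and RUNX1 -0.0953 to 0.000491. Of the rows, ENST00000566369 of IRF8 with THZ531 was -0.101 by library size and -0.129 with the spike-in. With AZ5576 against DMSO, ENST00000570088 of IRF8 was -0.0162 by library size and -0.0422 with the spike-in, ENST00000303660 of ZEB2 was -0.0322 and -0.0704, and ENST00000430686 of MYB was -0.249 to 0.217 with 1 library left out. With YKL5124 the IRF8 row was -0.354 to 0.00905.

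The share of calls that were higher fell to 10.2% with AZ5576, 13.7% with THZ531 and 20.8% with YKL5124 under the spike-in, against 44.7%, 48.0% and 34.9% with TMM. That is 504, 1142 and 518 genes higher, against 2948, 4818 and 1148. By library size alone the shares were 21.9%, 23.2% and 30.1%, and with the upper quartile YKL5124 had 54.1%. In AZ5576 against YKL5124 the genes higher numbered 145 with the spike-in, 273 by library size, 625 with DESeq2, 641 in 6 libraries and 511 without YKL5124 replicate 2, against 987. Same-numbered libraries did not deviate together (correlations -0.102 to 0.0725), so no pairing by number was seen, which does not show that there was none. With the replicate block 2919 genes rose and 3600 fell with AZ5576, against 2948 and 3654 without it, and no count of the 10 genes moved.

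The limits are 3 libraries a group from 1 line, an unstated strand setting, and rows whose exact stretches are not known. Where counts are few, as for the near rows of RUNX1 and IRF8, shares are wide.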
